A study of Mus musculus with 5 samples.

Results

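Dynein heavy chains are the ATPase motors of the arms that stand on the outer microtubule doublets of cilia and sperm tails. Outer arms set how fast a tail beats, and inner arms, which differ in kind along each repeat of the doublet, shape the bend. In the testis these very long genes are transcribed in germ cells that will build a flagellum, and such genes are frequent sources of circular RNAs (circRNAs), in which a downstream splice donor is joined back to an upstream acceptor. The circRNAs described here were all those that the deposited circRNA table assigns to 10 axonemal heavy chain genes by host symbol. The inner arm genes were Dnah1, Dnah2, Dnah3, Dnah6, Dnah7a, Dnah7b, Dnah10 and Dnah12, and the outer arm genes were Dnah5 and Dnah17. The table held 63 such circRNAs among 11957 (0.527%).

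The libraries came from testes of C57BL/6J males aged 10 weeks. Triptolide, a diterpenoid of the vine Tripterygium wilfordii, was given into the stomach at a daily dose of 50 µg per kg, and controls received saline. Testes were taken at 35 days from groups of 6 mice, and 3 triptolide and 2 control libraries were analysed. Whether each library holds RNA of a single mouse or of several pooled mice is not stated in the labels, and p-values here reflect the variation among libraries alone.

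Values are SRPBM, back-splice junction reads divided by the library's mapped reads and scaled up, and since each circRNA is counted at its 1 junction, levels need no scaling to length. In these files 1 read was worth 8.29 to 9.57 SRPBM, the lowest value listed was 2 reads, and a library held 32804 to 44318 junction reads in all, so counting error is large for most circRNAs. The library of control 1 stood apart. Of 346 circRNAs that reached 100 SRPBM in each of the other 4 libraries it listed 66 at 0, whereas each other library listed 1 at 0 by the same measure. Among circRNAs of germ cell marker genes, 9 of 15 genes had circles, with sums of 3911 to 5420 SRPBM in triptolide and 4533 to 6097 SRPBM in control libraries. In limma 0 of these 9 were called (0% of all hosts), with a median log2 fold change of -0.03. By sign, Smc1b (0.62), Spag16 (0.33), Crem (0.16) and Tex15 (0.03) were higher in triptolide and the others lower. At an unadjusted p under 0.05 limma found 2 (6.28% of all hosts), both lower in triptolide without overlap (11.5% of all hosts). Prm2, a protamine of late spermatids, had 86, 79 and 52 SRPBM in triptolide and 703 and 290 SRPBM in control libraries (log2 fold change -2.43 ± 0.46 SE, limma adjusted p = 0.75). Tex14, of the bridges between germ cells, had 76, 96 and 69 SRPBM in triptolide and 261 and 169 SRPBM in control libraries (log2 fold change -1.24 ± 0.41 SE, limma adjusted p = 0.75). Their part in the results below was not tested. Circles came from 0 of 6 Sertoli cell markers, 1 of 6 Leydig cell markers, 0 of 4 epididymis markers, 1 of 4 immune markers, 0 of 3 smooth muscle markers and 0 of 3 endothelial markers. Of 7 markers of multiciliated cells, the outer arm chains Dnah9 and Dnah11 had 4 low circles and the other 5 genes had none. In whole testis, fewer cells of a type and less RNA per cell cannot be told apart.

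Most of what the heavy chain genes gave came from 2 of them. Dnah7a and Dnah7b encode single-headed inner arm motors, and with Dnah7c they are the mouse copies of a gene that is single in humans. Together they had 46 of the 63 circRNAs and 94.8% of the mean SRPBM, and the other hosts had 17 circRNAs. Junction reads that match more than 1 copy could have been placed at either, so the split between the copies is uncertain. The likeness of the copies can be seen upstream of their starts, in RefSeq promoters of build GRCm38.p6, which matched 9 of the 10 hosts (Dnah3 was the other). The stretches below run 5′ to 3′ and are lined up on a palindrome, shown in capitals, of the X-box kind that RFX factors are known to bind at genes of cilia.
Dnah7a: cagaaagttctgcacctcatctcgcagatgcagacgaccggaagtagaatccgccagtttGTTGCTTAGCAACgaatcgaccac
Dnah7b: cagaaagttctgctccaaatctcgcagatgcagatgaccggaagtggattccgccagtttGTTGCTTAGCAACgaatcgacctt
Dnah7c: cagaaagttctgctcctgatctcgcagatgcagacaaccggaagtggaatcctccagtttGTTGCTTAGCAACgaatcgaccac
Dnah6: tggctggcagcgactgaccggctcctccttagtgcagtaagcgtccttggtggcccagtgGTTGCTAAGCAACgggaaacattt
They lie at chr1:53706818-53706901 (minus strand) for Dnah7a, chr1:46066769-46066852 (plus) for Dnah7b, chr1:46425389-46425472 (plus) for Dnah7c and chr6:73221644-73221727 (minus) for Dnah6. Over these 84 bases, Dnah7a was identical to Dnah7b at 76 positions and to Dnah7c at 79, and to Dnah6 at 25. These counts include the palindrome on which the stretches were lined up, so part of each was fixed in advance. Likeness of the junction sequences themselves was not measured. The palindrome, searched as GTTGC and GCAAC with any 3 bases between them, which reads the same on both strands and was chosen after the sequences were seen, occurred within 250 bases upstream of 3 of the 9 matched hosts, Dnah6, Dnah7a and Dnah7b. Counted per promoter rather than per host, it occurred in 68 of all 32851 promoters of the table (0.207%). Dnah7a and Dnah7b are copies, so they are not separate matches. With the motif picked from these same promoters, the counts give no measure of enrichment. A match is a description of letters, and binding was not measured.

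Of the 63 circRNAs, 38 were listed in 1 library (60.3%, against 54.3% of the other 11894 circRNAs), 8 in 2, 4 in 3, 5 in 4, and 8 in all 5 (12.7%, against 11.7%). The genomic distance from one back-splice end to the other had a median of 18613 bases (quartiles 7322 and 33305), and 16105.5 bases for the other circRNAs (quartiles 6599.5 and 33655.2). Of the heavy chain circles, 9 spanned over 50000 bases (14.3%, against 14.5% of the others). The widest was a Dnah7b circle of 175011 bases (chromosome 1, 46078523 to 46253533), listed at 26 SRPBM in triptolide B and at 0 elsewhere. The narrowest was a Dnah2 circle of 1123 bases (chromosome 11, 69515982 to 69517104), listed at 16 SRPBM in control 2 and at 0 elsewhere. Both extremes were thus seen in a single library. All 63 lay inside the RefSeq gene of their symbol.

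**Figure D1:**
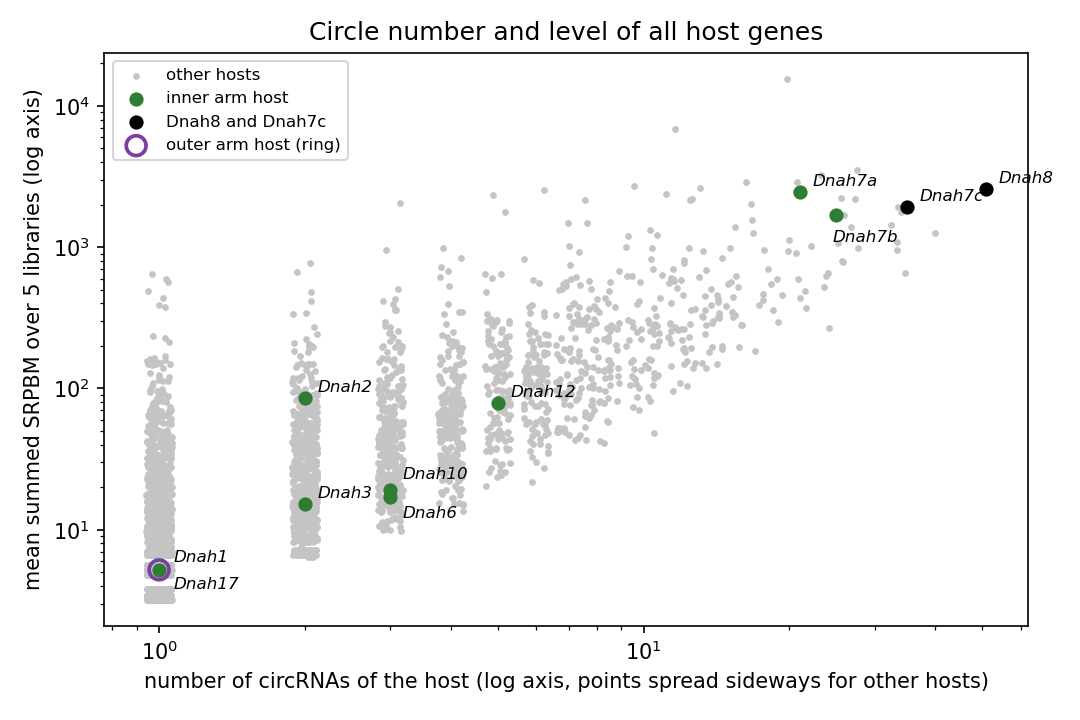
Number of circRNAs per host gene (x axis, log) against the mean over the 5 libraries of the host's summed SRPBM (y axis, log), 1 point per host of 3496. Dnah7a and Dnah7b lie among the hosts with most circles and highest sums, near Dnah7c and Dnah8, whereas the other heavy chain hosts have 1 to 5 circles and means under 100 SRPBM. The ring marks Dnah17, which coincides with Dnah1.

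Per library, the heavy chain circles summed to 3924, 5461 and 3583 SRPBM in triptolide A, B and C, and to 4135 and 4716 SRPBM in control 1 and 2. As a share of all circRNA SRPBM in the same library this was 1.26%, 1.40% and 1.17% in triptolide and 1.18% and 1.31% in control libraries. The groups overlapped on both scales. The mean share was 1.28% ± 0.115 in triptolide (SD, n = 3) and 1.25% ± 0.0919 in control (SD, n = 2), a difference smaller than the spread between libraries of one group. The number of these circles listed was 25, 27 and 24 in triptolide and 20 and 30 in control libraries, so the controls bracketed the triptolide libraries. Thinned to the same number of junction reads it was 25, 23.4 and 22.9 in triptolide and 18.9 and 24.5 in control libraries, where triptolide A was above both controls and the groups still overlapped. Without Dnah7a and Dnah7b, the inner arm circles summed to 113, 343 and 86 SRPBM in triptolide and to 383 and 180 SRPBM in control libraries, again with overlap. The outer arm sum was 26 SRPBM in triptolide B and 0 in the other 4 libraries.

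**Figure D2:**
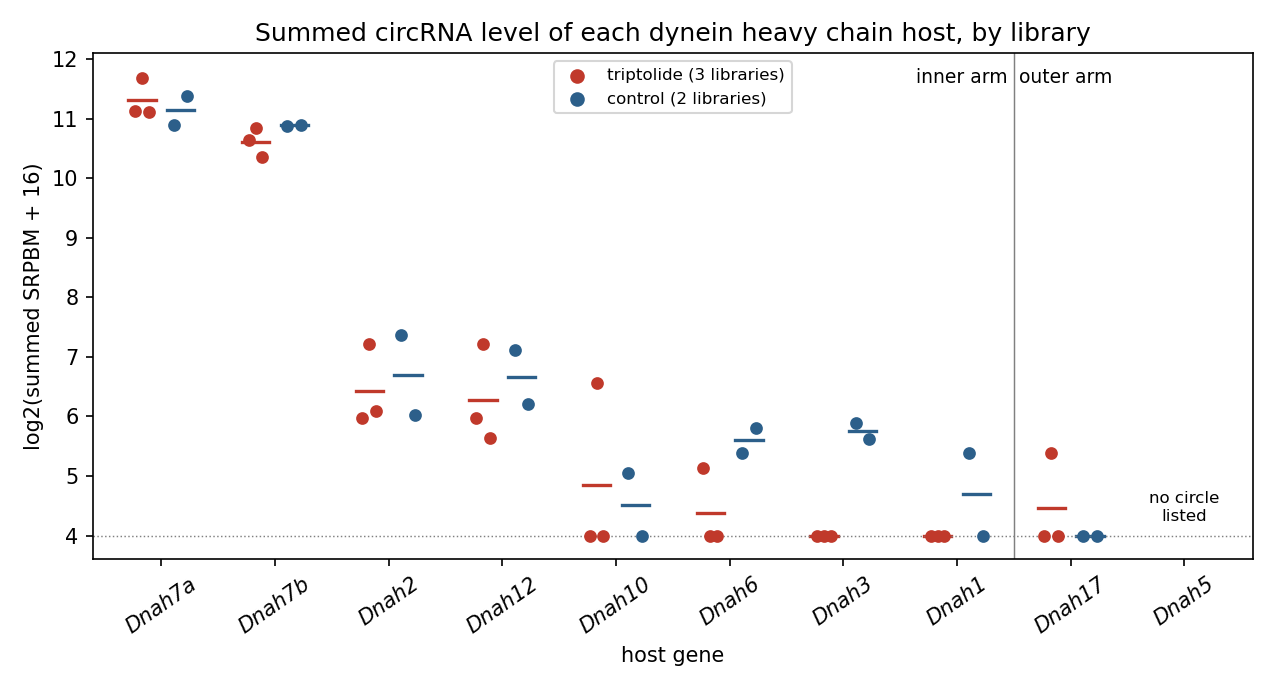
Summed circRNA level of each heavy chain host, as log2(summed SRPBM + 16), in triptolide (red, left) and control (blue, right) libraries; points are libraries, short lines are group means on this scale and the dotted line marks a sum of 0. Dnah7a and Dnah7b stand far above the other hosts, and Dnah3, Dnah6 and Dnah7b are the hosts whose groups do not overlap, all lower in triptolide.

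Host sums were compared between triptolide and control with limma on log2(summed SRPBM + 16), for hosts above 0 in at least 2 libraries, with Benjamini-Hochberg adjustment over all 2342 such hosts. Fold changes are on that scale, which understates the change of low sums. Of the 10 heavy chain hosts 7 were tested, and 0 passed an adjusted p of 0.05 in limma, in edgeR or in DESeq2. Over all 2342 hosts limma called 0 (0%), edgeR called 0 and DESeq2 called 1. At an unadjusted p under 0.05 limma found 1 of the 7, Dnah3, which was lower, against 6.28% of all hosts (2.65% higher and 3.63% lower). The sums of 3 of the 7 hosts were lower in triptolide without overlap, against 11.5% of all hosts, and 0 were higher without overlap, against 7.13%. The median log2 fold change over all hosts tested was -0.08.

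Dnah7a ranked 11th of 3496 hosts by mean summed SRPBM and 27th by number of circles, with 21. Its sums were 2227, 3280 and 2205 SRPBM in triptolide and 1880 and 2654 SRPBM in control libraries. Triptolide B was highest and control 1 lowest, and the groups overlapped. The means were 2571 ± 614 SRPBM in triptolide (SD, n = 3) and 2267 ± 547 SRPBM in control (SD, n = 2), with a log2 fold change of 0.18 ± 0.28 (SE; limma adjusted p = 0.96). That sign turned negative without control 1 (-0.07) and without triptolide B (-0.01).

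A single circle made up most of Dnah7a's sum. The circle from 53617725 to 53623567 on chromosome 1 spans 5843 bases and had 1827, 2480 and 1654 SRPBM in triptolide and 1689 and 2237 SRPBM in control libraries. Its groups overlapped, with means of 1987 ± 436 SRPBM in triptolide and 1963 ± 387 SRPBM in control (SD, n = 3 and n = 2) and a log2 fold change of 0.01 ± 0.29 (SE; limma adjusted p = 0.99). A second row of the table, with no host symbol and so outside the 63, has the same start and ends at 53623729. It had 478, 522 and 400 SRPBM in triptolide and 0 and 513 SRPBM in control libraries. It is another high circle that control 1 listed at 0.

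The second Dnah7a circle runs from 53605798 to 53647322 (41525 bases), around the first. It had 258, 513 and 269 SRPBM in triptolide and 0 and 165 SRPBM in control libraries. All triptolide libraries were above both controls, and control 1 was at 0, one of the 66 circRNAs that only this library listed at 0 among those at 100 SRPBM or more in the others. The means were 347 ± 144 SRPBM in triptolide (SD, n = 3) and 82.5 ± 117 SRPBM in control (SD, n = 2), with a log2 fold change of 2.68 ± 0.91 (SE; limma adjusted p = 0.68). Without control 1 the log2 fold change was 0.93 (limma adjusted p = 0.90), and without control 2 it was 4.43 (limma adjusted p = 7.2e-17). That second fit has control 1 as its only control, listed at 0 and assumed to vary like the triptolide libraries, so it gives no evidence of a difference. With no filter on low values, the limma adjusted p was 3.4e-04 at the same log2 fold change. That fit took in all 11957 circRNAs, also those listed in 1 library, and control 1 was still at 0. With the filter, edgeR and DESeq2 on recovered reads gave adjusted p of 0.67 and 0.9995. By the fits that leave out a control, the size of this difference depends on control 1. A row without a host symbol that shares its end and starts 4 bases away, at 53605794, had 47, 0 and 17 SRPBM in triptolide and 0 in both control libraries.

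The other Dnah7a circles were low, none over 70 SRPBM in a library. The circle from 53643441 to 53686607 had 0, 26 and 17 SRPBM in triptolide and 52 and 49 SRPBM in control libraries, without overlap, with a log2 fold change of -1.24 ± 0.71 (SE; limma adjusted p = 0.68). The circles from 53559040 to 53584651 (19, 0 and 52 SRPBM in triptolide) and from 53605798 to 53636177 (0, 17 and 34 SRPBM in triptolide) were at 0 in both control libraries and had unadjusted p of 0.176 and 0.182 in limma. In each of these, at least 1 triptolide library was at 0 as well. By number, 9 of the 21 circles were seen in 1 library and 2 in all 5.

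Dnah7b ranked 24th by mean summed SRPBM and 16th by number of circles, with 25, of which 15 were seen in 1 library and 4 in all 5. Its sums were 1584, 1812 and 1292 SRPBM in triptolide and 1872 and 1882 SRPBM in control libraries. All triptolide libraries were below both controls, which lay close together. The means were 1563 ± 261 SRPBM in triptolide (SD, n = 3) and 1877 ± 7.1 SRPBM in control (SD, n = 2), with a log2 fold change of -0.28 ± 0.25 (SE; limma adjusted p = 0.83). That control SD is less than 1 read (8.80 and 8.29 SRPBM in control 1 and 2). With 2 controls, such closeness says little about the spread between libraries. The difference in the Dnah7b sum did not pass the test.

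The leading Dnah7b circle, from 46078523 to 46109340 (30818 bases), had 928, 1036 and 661 SRPBM in triptolide and 1214 and 1135 SRPBM in control libraries. Again all triptolide libraries were below both controls. The means were 875 ± 193 SRPBM in triptolide (SD, n = 3) and 1175 ± 55.9 SRPBM in control (SD, n = 2), with a log2 fold change of -0.44 ± 0.29 (SE; limma adjusted p = 0.68). The other circles that begin at the same position and were tested had lower values in triptolide by sign in 3 of 4, and 0 of the 4 passed the test. That from 46078523 to 46099598 had 162, 372 and 235 SRPBM in triptolide and 334 and 215 SRPBM in control libraries, and that from 46078523 to 46142164 had 143, 186 and 148 SRPBM in triptolide and 167 and 248 SRPBM in control libraries. Their log2 fold changes were -0.14 ± 0.42 and -0.34 ± 0.36 (SE), with limma adjusted p of 0.99 and 0.89, and both had overlapping groups. The short one from 46078523 to 46085702 had 105, 53 and 60 SRPBM in triptolide and 35 and 58 SRPBM in control libraries, with a log2 fold change of 0.48 ± 0.51 (SE; limma adjusted p = 0.89). The one from 46078523 to 46116294 was listed in 2 libraries, at 35 SRPBM in triptolide B and 35 SRPBM in control 1 (log2 fold change -0.28 ± 0.81 SE, limma adjusted p = 0.99).

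Among lower Dnah7b circles, that from 46097998 to 46142164 had 47, 35 and 34 SRPBM in triptolide and 0 and 16 SRPBM in control libraries. It was higher in triptolide without overlap, with a log2 fold change of 1.26 ± 0.68 (SE; limma adjusted p = 0.68). The circle from 46268605 to 46303638 had 19, 17 and 0 SRPBM in triptolide and was at 0 in both controls (limma adjusted p = 0.68). Both were at 5 reads or fewer in each library.

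**Figure D3:**
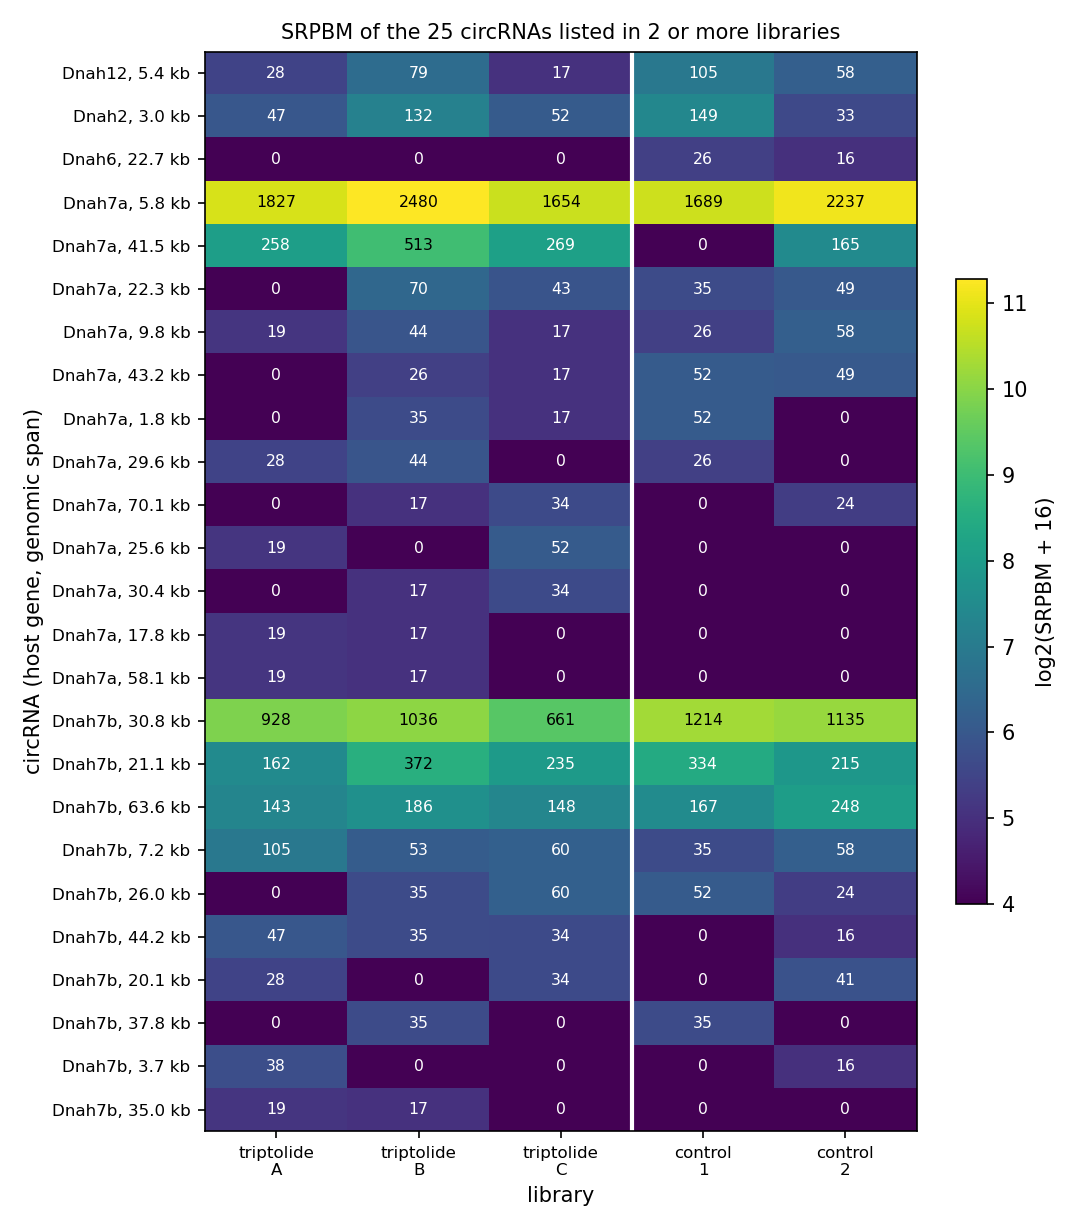
SRPBM of the 25 heavy chain circRNAs listed in at least 2 libraries, 1 row per circle (host gene and genomic span in kb) and 1 column per library, triptolide left of control; numbers are SRPBM and colour is log2(SRPBM + 16). The Dnah7a circle of 5843 bases and the Dnah7b circle of 30818 bases are high in every library, and the Dnah7a circle of 41525 bases is at 0 in control 1.

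In both hosts most circles shared an end with another circle of the gene, 19 of 21 in Dnah7a and 21 of 25 in Dnah7b. The circles still used many ends, 15 lower and 12 upper ones in Dnah7a and 14 lower and 15 upper ones in Dnah7b, and most shared ends served 2 to 4 circles. The sharing circles had 99.7% of the mean SRPBM in Dnah7a, where the leading circle alone had 80.7% and shares its ends with 2 low circles, and 98.5% in Dnah7b. In Dnah7b, which RefSeq places on the plus strand, so that the lower coordinate is the acceptor, 7 circles began at 46078523 and together had 90.4% of the host's mean SRPBM. They ended at 7 different positions. The end 46142164 was shared by 6 circles with 15.02% of the mean. Dnah7a lies on the minus strand, and its 2 main circles use different ends. The lower end 53617725 was in 2 circles with 81.5% of the mean, and the lower end 53605798 in 4 circles with 10.8%. The upper end 53647322 was in 3 circles with 11.3%. In the other 7 hosts with circles, 0 of 17 circles shared an end. Those hosts had 1 to 5 circles each, and a host with 1 circle cannot share an end. End sharing was not counted in Dnah7c, in Dnah8 or over all hosts.

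**Figure D4:**
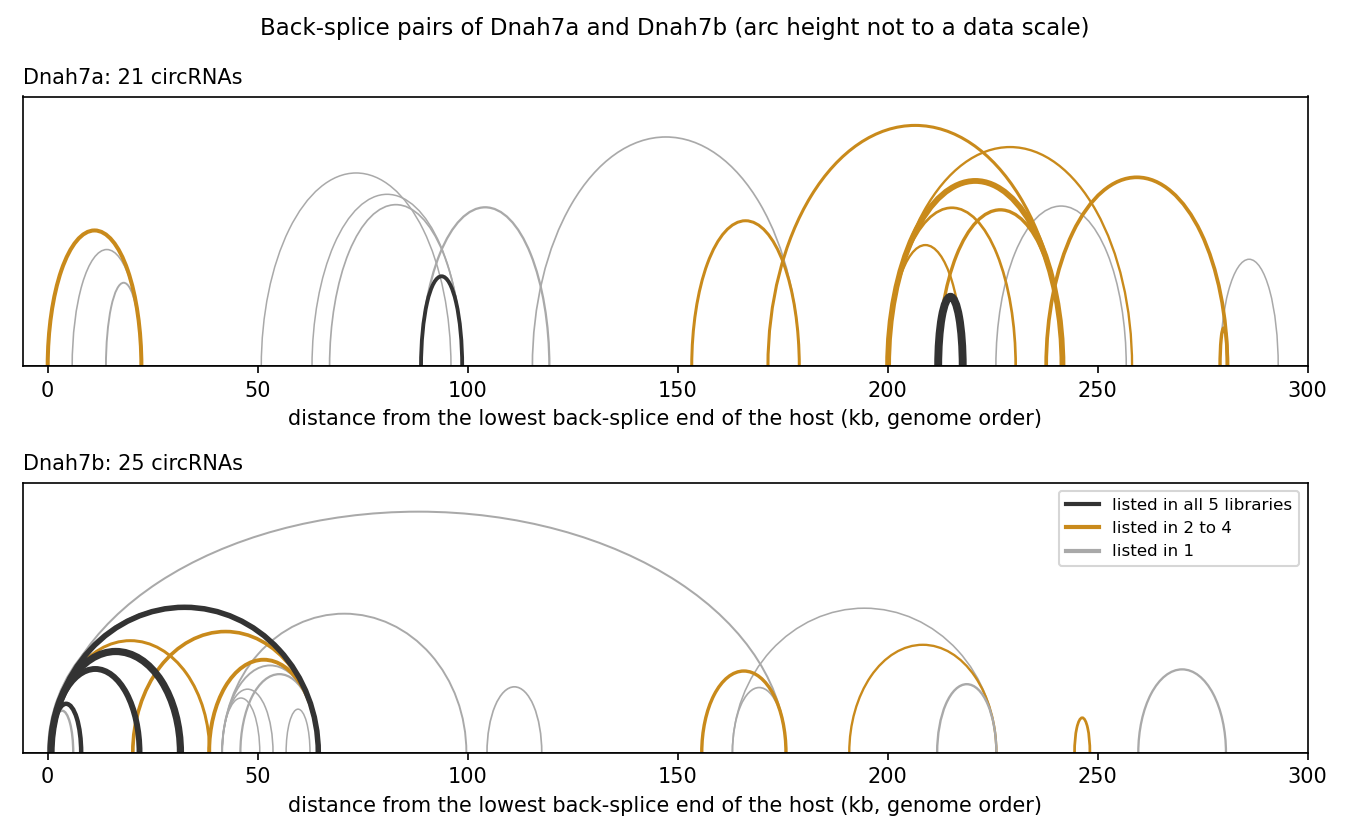
Back-splice pairs of Dnah7a (upper) and Dnah7b (lower), as arcs from one end of each circle to the other, by distance in kb along the genome from the lowest end of the host; line width grows with the log of mean SRPBM, and colour gives in how many libraries a circle was listed. The Dnah7b arcs fan out from 1 shared end near the left edge, and the strongest Dnah7a arc is a short one inside a wider arc.

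The leading circle's share of its host's sum was lower in triptolide in Dnah7a and Dnah7b, a measure looked at after the values were seen. In Dnah7b it was 58.6%, 57.2% and 51.2% in triptolide and 64.9% and 60.3% in control libraries. The means were 55.6% ± 3.9 in triptolide (SD, n = 3) and 62.6% ± 3.2 in control (SD, n = 2), without overlap (two-sided exact permutation p = 0.2 over the 10 assignments of libraries). With only the 4 circles listed in all libraries the shares overlapped, at 69.4%, 62.9% and 59.9% in triptolide and 69.4% and 68.5% in control libraries (two-sided exact permutation p = 0.3). Without the circle from 46116169 to 46142164, the highest not listed in every library, they were 58.6%, 58.3% and 53.7% in triptolide and 66.7% and 61.1% in control libraries, without overlap (two-sided exact permutation p = 0.1). In Dnah7a the share was 82.0%, 75.6% and 75.01% in triptolide and 89.8% and 84.3% in control libraries, without overlap (two-sided exact permutation p = 0.2). Leaving out the circle that control 1 listed at 0 gave 92.8%, 89.6% and 85.4% in triptolide and 89.8% and 89.9% in control libraries, where the groups overlapped (two-sided exact permutation p = 0.8). The gap in Dnah7a thus did not remain without that circle. The smallest p that 3 against 2 libraries allow in this test is 0.1. In Dnah7c the share was 50.0%, 53.0% and 57.4% in triptolide and 0% and 53.3% in control libraries, where the groups overlapped. Dnah8 overlapped too, at 49.25%, 51.9% and 55.3% in triptolide and 59.5% and 47.1% in control libraries. How often groups do not overlap in this share over all hosts was not counted.

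The double-headed inner arm pairs Dnah2 with Dnah10. Dnah2 had 2 circles, and its sums were 47, 132 and 52 SRPBM in triptolide and 149 and 49 SRPBM in control libraries. Nearly all came from the circle at chromosome 11, 69497814 to 69500858, with 47, 132 and 52 SRPBM in triptolide and 149 and 33 SRPBM in control libraries. In each group 1 library was high, at 15 and 17 reads, and the groups overlapped. The log2 fold change of the sum was -0.27 ± 0.63 (SE; limma adjusted p = 0.97), and it was 0.40 without control 1. Dnah10 had 3 circles, each in 1 library, and its sums were 0, 79 and 0 SRPBM in triptolide and 17 and 0 SRPBM in control libraries. The highest of them, at chromosome 5, 124753168 to 124754358, had 44 SRPBM in triptolide B. The log2 fold change of the Dnah10 sum was 0.33 ± 0.89 (SE; limma adjusted p = 0.98), and it was -0.19 without control 2.

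Among the single-headed chains, Dnah12, needed for a normal sperm tail, had 5 circles. Its sums were 47, 132 and 34 SRPBM in triptolide and 122 and 58 SRPBM in control libraries, with overlap and a log2 fold change of -0.38 ± 0.64 (SE; limma adjusted p = 0.97). That sign turned positive without control 1 (0.07). Its main circle, at chromosome 14, 26796171 to 26801575, had 28, 79 and 17 SRPBM in triptolide and 105 and 58 SRPBM in control libraries. Triptolide B lay between the controls, and the log2 fold change was -0.87 ± 0.62 (SE; limma adjusted p = 0.68). The other 4 Dnah12 circles were each seen in 1 library.

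Dnah6 and Dnah3 were the low hosts whose groups did not overlap. Dnah6, with 3 circles, summed to 19, 0 and 0 SRPBM in triptolide and to 26 and 40 SRPBM in control libraries, with a log2 fold change of -1.22 ± 0.68 (SE; limma adjusted p = 0.77). Its circle at chromosome 6, 73092041 to 73114709, was at 0 in all triptolide libraries and at 26 and 16 SRPBM in control libraries (limma adjusted p = 0.68), which is 3 and 2 reads. Dnah3 had 2 circles and was at 0 in all triptolide libraries, against sums of 43 and 33 SRPBM in control libraries, which is 5 and 4 reads (limma adjusted p = 0.75). The control reads came from a different circle in each library, at chromosome 7, 119950241 to 119952169, in control 1 and at 119936970 to 119939033 in control 2. With so few reads, and with values under 2 reads never listed, no fold is given for Dnah3 or for the Dnah6 circle.

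Dnah1, whose loss causes malformed sperm tails in men and mice, had 1 circle (chromosome 14, 31316113 to 31320046). It was at 26 SRPBM in control 1 and at 0 in the other libraries. Of the outer arm chains, Dnah17, a sperm tail motor, had 1 circle (chromosome 11, 118024594 to 118026855). It was at 26 SRPBM in triptolide B and at 0 in the other libraries. Each of these is 3 reads in a single library, and neither host was tested. Dnah5, an outer arm motor of motile cilia in the airway and embryonic node, had 0 circles in the table. Dnah8, the outer arm chain that works with Dnah17 in sperm, had 51 circles, and summed to 2000, 3141 and 2048 SRPBM in triptolide and to 3076 and 2565 SRPBM in control libraries (log2 fold change -0.26 ± 0.28 SE, limma adjusted p = 0.90). The low circle numbers of Dnah5 and Dnah17 were thus not shared by Dnah8. Dnah9 and Dnah11, outer arm chains outside the 10 genes, were also low, with 3 circles and 1 circle, each listed in 1 library.

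Of the 63 circles, 25 were above 0 in at least 2 libraries and were tested singly, and the other 38 were not. In limma 0 passed an adjusted p of 0.05 (0% of all 5457 circRNAs tested), and the smallest adjusted p was 0.68. By edgeR and by DESeq2 on recovered junction reads 0 of the 25 were called as well, and each called 0 of all 5457 circRNAs tested. At an unadjusted p under 0.05 limma found 2 of the 25, against 6.6% of all circRNAs tested, 1 higher (the second Dnah7a circle, background 1.8%) and 1 lower (the Dnah6 circle, background 4.8%). By sign alone 13 were higher and 12 lower in triptolide, with a median log2 fold change of 0.01, beside -0.06 over all circRNAs tested. Groups did not overlap for 2 circles that were higher, against 6.78% of all tested, and for 3 that were lower, against 10.5%. A circle enters this test only if listed in at least 2 libraries, so these counts do not speak for all 63.

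**Figure D5:**
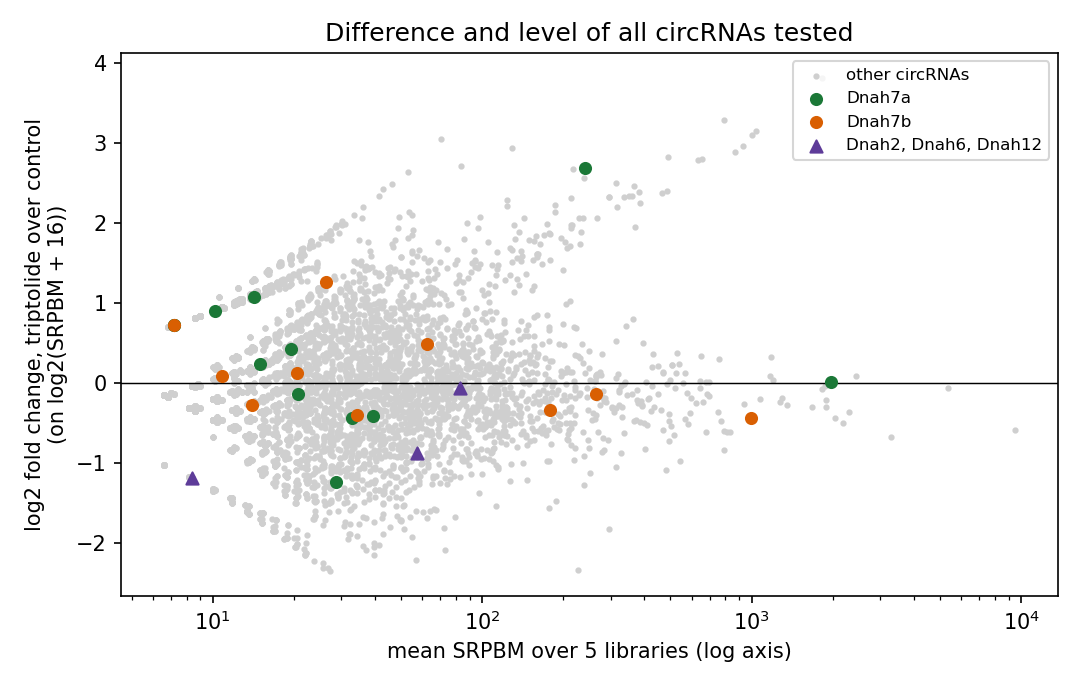
Log2 fold change of triptolide over control on log2(SRPBM + 16) against mean SRPBM (log axis), 1 point per circRNA of the 5457 tested, with the circles of Dnah7a, Dnah7b and the other heavy chain hosts coloured. The leading Dnah7a circle sits at 0.01 and the leading Dnah7b circle at -0.44; the Dnah7a point at 2.68 is the circle listed at 0 in control 1.

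Dnah7c, the remaining copy, had 35 circles and sums of 2030, 2490 and 1804 SRPBM in triptolide and 873 and 2425 SRPBM in control libraries, with a log2 fold change of 0.52 ± 0.40 (SE; limma adjusted p = 0.79). Its leading circle was at 0 in control 1 as well. The hosts whose sums across the 5 libraries were most like those of Dnah7a, by Euclidean distance of log2(summed SRPBM + 16), were Enah at 0.454, Nlrp5-ps at 0.491 and Ubn2 at 0.579. Enah, for example, summed to 2313, 2965 and 2533 SRPBM in triptolide and to 2400 and 2402 SRPBM in control libraries.

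Of 45 other dynein genes (remaining heavy chains, intermediate and light chains, docking factors, assembly factors and inner arm attachment factors), 22 had circles, 165 in all, and 17 were tested. In limma 0 of the 17 were called in either direction (0% of all hosts), with 1 at an unadjusted p under 0.05 (6.28% of all hosts) and a median log2 fold change of -0.10. That gene was Ccdc151, which docks outer arms, with 0 SRPBM in all triptolide libraries and 26 and 24 SRPBM in control libraries (limma adjusted p = 0.75). Dync2h1, the heavy chain of intraflagellar transport, had 22 circles and sums of 854, 996 and 805 SRPBM in triptolide and 1409 and 1078 SRPBM in control libraries (log2 fold change -0.48 ± 0.25 SE, limma adjusted p = 0.77). Cfap43, known from ciliates and green algae as part of the tether of the double-headed inner arm, had 8 circles and sums of 123, 148 and 69 SRPBM in triptolide and 60 and 16 SRPBM in control libraries (log2 fold change 1.34 ± 0.60 SE, limma adjusted p = 0.76). Neither passed the test. The groups did not overlap in either gene, as in 11.5% of all hosts lower and 7.13% higher in triptolide.

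The lncRNA table gave a second reading under the same gene symbols, in expected counts summed per locus. It had 6 antisense loci at 4 of the 10 genes, Dnah7a, Dnah7b, Dnah10 and Dnah6, of which 2 were tested and 0 called by edgeR's quasi-likelihood test, where 7.27% of all 6888 loci tested were called. By DESeq2 0 of these 2 were called as well, where the share over all loci was not counted. The unadjusted edgeR p of both was above 0.05, whereas 1497 of all 6888 loci tested were under 0.05. With 2 loci tested, these counts say little. The locus XLOC_001607, antisense to Dnah7a (chromosome 1, 53701725 to 53776266, plus strand), had 270, 293 and 248 CPM in triptolide libraries and 318 and 295 CPM in control libraries. All triptolide libraries were below both controls, with a log2 fold change of -0.18 ± 0.19 (SE; edgeR adjusted p = 0.63). The locus XLOC_008204, antisense to Dnah7b (chromosome 1, 46369225 to 46424033, minus strand), had 13.7, 17.01 and 18.5 CPM in triptolide libraries and 22.8 and 21.5 CPM in control libraries, without overlap, with a log2 fold change of -0.43 ± 0.42 (SE; edgeR adjusted p = 0.62). The share of all loci tested whose groups did not overlap was not counted, so the lack of overlap at these 2 loci has no background. Without a stated strand setting for the counting, reads from these loci and reads from their partner genes cannot be told apart for certain. By position, XLOC_001607 runs past the Dnah7a promoter stretch (53706818 to 53706901). XLOC_008204 lies between the highest end of a Dnah7b circle (46358306) and the Dnah7c promoter stretch (from 46425389). The other 4 loci had 9 counts or fewer in each library.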

How the data were processed

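The members and lists were chosen with earlier results of these data known. The submitters' processing notes list bedtools 2.17.0, DESeq, HISAT2 2.0.1 and HTSeq 0.6.1 without roles, and hg19, a human build. The coordinates are mouse: 9708 of 9796 circRNAs with a symbol in RefSeq's GRCm38.p6 gene table (99.1%) lay inside that gene. For the circRNA caller, none is given in the sources used here. The authors deposited circRNA levels as a score, SRPBM, cut to whole numbers. Every value above 0 equalled a whole number of reads times the library's step (8.29 to 9.57), cut to the whole number below. Per the file headers, lncRNA values are expected counts, rounded here. Of the circRNA columns 3 share a triptolide header, as do 2 of the lncRNA columns, so they carry letters, which do not match between tables. The 5 FPKM columns and the mRNA table were not used here.

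limma 3.58.1 (R 4.3.3, trend) was fitted to log2(SRPBM + 16) over all circRNAs, or host sums, above 0 in at least 2 libraries. Recovered reads were tested with edgeR 4.0.16 and DESeq2 1.42.0, and lncRNA loci with edgeR (filterByExpr, TMM). Adjustment was by Benjamini-Hochberg at 0.05. CPM are counts scaled to the table's library total (947298 to 1071012). Named were all hosts, each host's highest circle, circles above 0 in all libraries with a mean of at least 100 SRPBM, the 5 smallest p in each direction, and the widest and narrowest circles; others were named after their values were seen.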

Additional observations from a re-analysis of the deposited data

How the results depend on the processing

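No paired analysis was possible because the 3 triptolide columns of the circRNA table share 1 replicate number, and the lncRNA columns share fewer than 2 numbers between the groups. Over all circRNAs limma called 0. That became 36 with no filter, 1 among those above 0 in all 5 libraries, and 0 to 130 when 1 library was left out, 130 without control 2 and 2 without control 1. Host sums called were 0, against 1 with no filter, 1 in DESeq2 and 0 to 48 with 1 library left out, 48 without control 2. Heavy chain circles called were 0, against 1 with no filter and 0 to 1 with 1 library left out. The 1 was in both cases the Dnah7a circle from 53605798 to 53647322, whose log2 fold change was 2.68 with no filter and 0.93 to 4.43 with 1 library left out. The ratio of triptolide to control means was 0.977 for all heavy chain circles and 0.673 without Dnah7a and Dnah7b; for the inner arm it was 0.975 and 0.642. The number of circles listed was 0.333 higher in triptolide on average, and 2.05 higher when libraries were thinned to the same junction reads.

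Signs with 1 library left out were followed for the tested circles named by rule, the 7 host sums and the 2 lncRNA loci, not for all 25 circles. Circles or sums that then fell under the filter had no fit. Among those followed, signs turned on single libraries for 7 log2 fold changes. With 1 library left out they ranged from -0.94 to 0.81 for the Dnah2 circle from 69497814 to 69500858, -0.19 to 0.21 for the leading Dnah7a circle and -0.44 to 0.16 for the Dnah7b circle from 46078523 to 46099598. For host sums the ranges were -0.071 to 0.42 for Dnah7a, -0.94 to 0.40 for Dnah2, -0.19 to 0.76 for Dnah10 and -0.85 to 0.067 for Dnah12. The difference in the leading circle's share of Dnah7a was -9.51 percentage points, and 0.758 with only circles listed in all 5 libraries. The causes were not tested. Circles of 2 to 5 reads limit what can be resolved here.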
